A study of Homo sapiens with 6 samples.

Results

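Transcripts of 37 genes that carry signals away from the receptor MET were compared between cells with and without an introduced FOXC2 gene. The set was defined by a list of 45 gene symbols, chosen from the known RAS and PI3K-AKT branches of the MET pathway. A symbol counted as measured where the platform's probe annotation gave it to a feature of the table, and where a gene had more than 1 feature, the brightest on average over the 6 arrays was kept. The other 8 symbols had no feature under that annotation and were not analysed here. They were the MET ligand HGF, its activator HGFAC, and NRAS, BRAF, PIK3CA, PIK3R2, CRK and PAK1.

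The cells were of the human line SW480, from a colorectal adenocarcinoma. One group had received a FOXC2 construct by retrovirus (the FOXC2 cells) and the other the vector pBabe without insert (the pBabe cells). FOXC2 is a forkhead transcription factor. Each group held 3 cultures, and both groups were kept in medium with 10% serum. Transduced cells of either kind were selected for 3 to 5 days in 0.5 μg/mL puromycin, and RNA was taken at 90% confluence. Each culture was hybridised to 1 single-colour NimbleGen array. No clone and no separate transduction is named, so errors and p-values reflect how cultures differ within a group, and populations selected separately could differ more. No ligand treatment is described, and an array measures transcript level, not phosphorylation or activity of a kinase.

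As background, MET is the receptor tyrosine kinase for hepatocyte growth factor. When it is active, adaptors such as GRB2, SHC1 and GAB1 dock on its phosphorylated tail and bring in the exchange factors SOS1 and SOS2, which load RAS with GTP and start the RAF, MEK and ERK kinase relay. The same platform recruits phosphoinositide 3-kinase (PI3K), whose lipid product draws AKT to the membrane, where PDPK1 and mTOR complex 2 phosphorylate it. AKT in turn releases mTOR complex 1, the growth-controlling complex built on RPTOR, from its inhibitors TSC1 and TSC2. In colorectal cancer both branches are known for driving growth and survival.

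The labels were checked first. FOXC2 had intensities of 8777, 8262 and 8344 in FOXC2 cells, against 2319, 2323 and 2818 in pBabe cells. MET had intensities of 1082, 1180 and 1105 in FOXC2 cells, against 488, 532 and 527 in pBabe cells, and both genes lay higher on every FOXC2 array. Of 8 measured markers of colorectal epithelium, 6 rose and 1 fell in FOXC2 cells. Of all genes with a symbol, 14.1% rose and 14.3% fell. Those that rose were VIL1 (8.62-fold), EPCAM (5.08-fold), CDX2 (2.28-fold), the keratin KRT19 (2.09-fold), the cadherin CDH1 (2.05-fold) and LGALS4 (1.38-fold). CDH1 was dim (in both groups below the median of all values, 903), at a mean of 202 in FOXC2 cells and 98.5 in pBabe cells. The bright keratin KRT18 fell, with means of 22698 in FOXC2 cells and 27896 in pBabe cells, and KRT8 did not pass, with 32103 in FOXC2 cells and 35431 in pBabe cells. The summed intensity of the 8 was 73428 to 77741 on the FOXC2 arrays and 67856 to 72729 on the pBabe arrays. Of 4 measured fibroblast markers, 3 fell (COL1A1, DCN and PDGFRB), and COL3A1, higher on every FOXC2 array, did not pass (log2 fold change 0.37, adjusted p 0.116). The summed intensity of all 4 was 821 to 1009 on the FOXC2 arrays and 3290 to 4095 on the pBabe arrays. Of 2 measured leukocyte markers, CD3D fell. CD68, higher on every FOXC2 array, did not pass (log2 fold change 0.40, limma adjusted p 0.0685). No listed endothelial marker was analysed here. All cultures were of the line SW480, so a list names where a marker is best known, not a cell type known to be present. The part of these shifts in the results that follow was not tested. In bulk RNA, fewer cells with a transcript and less of it per cell cannot be told apart.

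Changes in the relay were small. Of the 37 members, 5 rose in FOXC2 cells, namely AKT2, AKT1, PIK3R1, GAB2 and MAPK3, and 5 fell, namely PIK3C2A, PIK3CB, RPTOR, PIK3CD and ARAF. A gene passed where its adjusted p was under 0.05 (limma on log2 intensity, Benjamini-Hochberg adjustment over all 33497 features). The 10 that passed are 27.0% of the members, near the background: 26.3% of all features and 28.4% of the 12562 named genes passed, 14.1% of named genes higher and 14.3% lower. The count is therefore no result about the set as a whole. With dim features left out, PIK3R1 and GAB2 dropped out and CBL and PLCG1 passed lower, so that 3 of 28 members were higher and 7 lower, where 42.9% of features passed. The median log2 fold change (FOXC2 minus pBabe) was -0.05 over the members and 0.03 over all features, and the median size of the change, whatever its sign, was 0.20 over the members and 0.25 over all features. A change of 2-fold or more was reached by 0 of 37 members, against 6.22% of all features. The 2 groups did not overlap for 15 of 37 members, or 40.5%, against 48.4% of named genes.

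**Figure D1:**
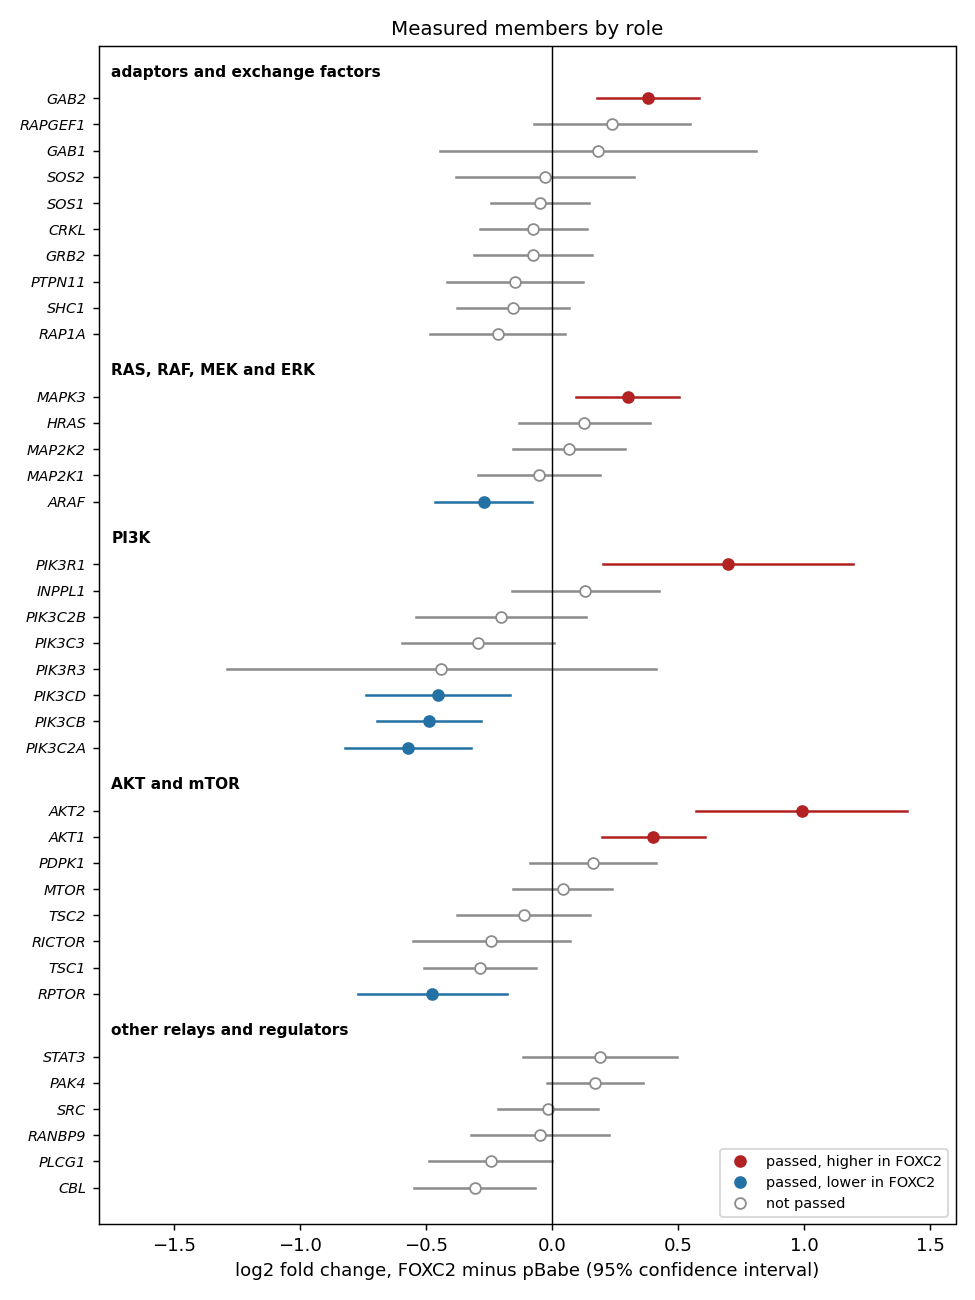
Log2 fold change (FOXC2 minus pBabe, x axis) of the 37 measured members, grouped by role, with 95% confidence intervals from 3 arrays per group. Filled red points passed higher in FOXC2 (5 genes), filled blue points passed lower (5 genes) and open grey points did not pass (27 genes). AKT2, at 0.99, lies farthest from 0.

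For the 27 members that did not pass, the interval of the change is the informative value. It lay between a 2-fold rise and a 2-fold fall for 26 of them, the exception being PIK3R3, and within ±0.5 on the log2 scale for 19. The calls also differed in how much they depended on single arrays. AKT2, PIK3CB and PIK3C2A passed with each of the 6 arrays left out in turn and in the 8 other settings tried. The other 7 calls were lost when 1 or more single arrays were left out, as given beside each gene. With an array left out, 5752 to 6768 of all features passed, against 8819 with all arrays.

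**Figure D2:**
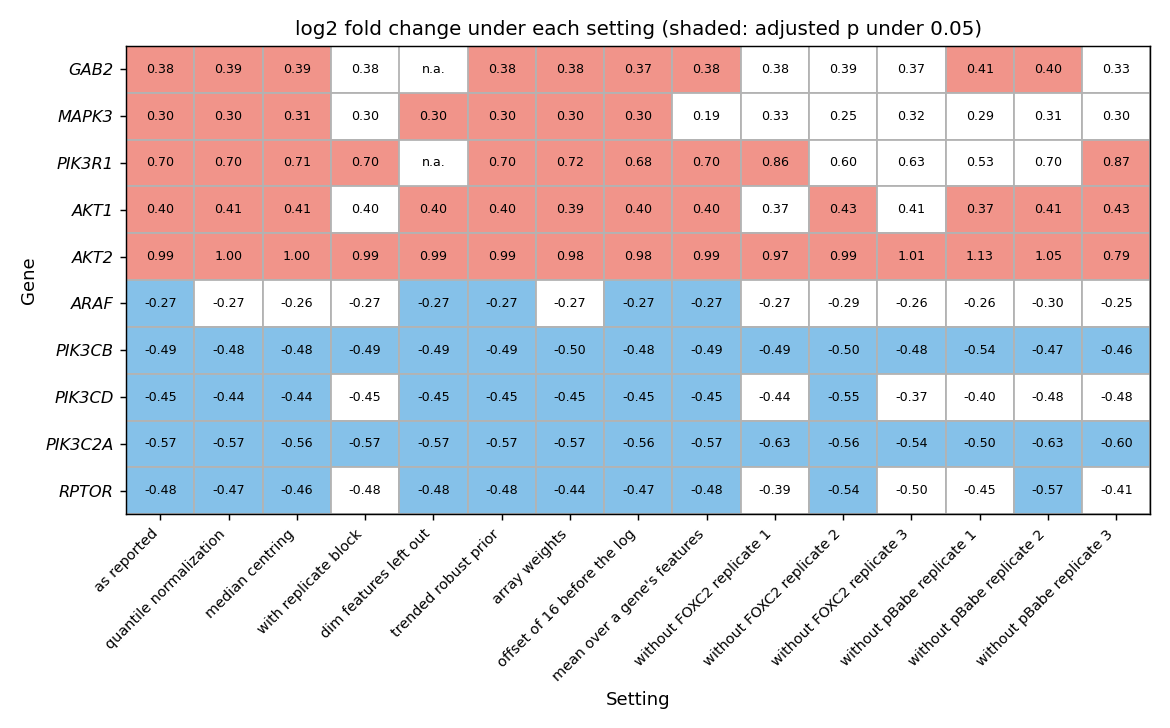
Log2 fold change (FOXC2 minus pBabe, number in each cell) of the 10 members that passed, by gene (rows) and processing setting (columns). Shaded cells had an adjusted p under 0.05 (red higher, blue lower in FOXC2), white cells did not, and n.a. marks a gene left out as dim. The rows of AKT2, PIK3CB and PIK3C2A are shaded throughout.

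Promoter sequences of 33 of the 37 members were found in a RefSeq table of build GRCh38.p14, which gives 250 bases before and 50 bases after each start, with several starts for some genes. The forkhead family is known to bind motifs around the core GTAAACA. That 7-base word, on either strand, was in 0 of 57 member promoters and in 3.42% of the 35116 promoters in the table. The shorter word TGTTTA, part of the reverse strand of that core and itself searched on both strands, was in 2 of 57 member promoters and in 12.3% of all. Those 2 belonged to PIK3R1 and GAB2, both of which rose. They are shown with the word in capitals (as TAAACA on the printed strand), beside a promoter each of AKT2 and PIK3CB, which passed in all 14 alternatives and whose printed windows do not hold it. A match of letters is a description of the window and shows no binding.
PIK3R1 promoter, plus strand, chr5:68290414-68290713, word beginning 212 bases before the start: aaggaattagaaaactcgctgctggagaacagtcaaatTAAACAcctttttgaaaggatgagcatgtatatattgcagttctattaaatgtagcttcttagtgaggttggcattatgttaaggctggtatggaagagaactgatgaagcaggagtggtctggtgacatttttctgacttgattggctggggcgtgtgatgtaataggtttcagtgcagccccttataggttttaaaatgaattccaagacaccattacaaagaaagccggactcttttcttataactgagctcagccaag
GAB2 promoter, minus strand, chr11:78341870-78342169, word beginning 1 base before the start: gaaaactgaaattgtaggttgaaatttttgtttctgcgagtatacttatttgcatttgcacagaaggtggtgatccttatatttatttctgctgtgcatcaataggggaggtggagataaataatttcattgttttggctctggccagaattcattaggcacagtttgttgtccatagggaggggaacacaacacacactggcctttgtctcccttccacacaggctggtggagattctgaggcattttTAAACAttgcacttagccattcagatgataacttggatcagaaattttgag
AKT2 promoter, minus strand, chr19:40285296-40285595: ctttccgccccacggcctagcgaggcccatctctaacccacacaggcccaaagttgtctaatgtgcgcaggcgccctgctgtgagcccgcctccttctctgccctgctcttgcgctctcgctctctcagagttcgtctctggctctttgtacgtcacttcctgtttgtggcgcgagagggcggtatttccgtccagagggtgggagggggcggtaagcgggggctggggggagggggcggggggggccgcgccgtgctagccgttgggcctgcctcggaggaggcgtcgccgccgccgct
PIK3CB promoter, minus strand, chr3:138834879-138835178: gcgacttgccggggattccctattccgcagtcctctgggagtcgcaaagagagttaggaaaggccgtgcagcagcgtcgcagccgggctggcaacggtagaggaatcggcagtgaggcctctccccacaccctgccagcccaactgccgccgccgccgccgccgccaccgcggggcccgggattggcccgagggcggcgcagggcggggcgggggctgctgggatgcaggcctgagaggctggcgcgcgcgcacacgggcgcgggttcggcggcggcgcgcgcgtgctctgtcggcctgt
The pair that holds the word has a GC content of 40.0% in each, and the windows without it in the genes that passed range from 37.7%, in a second PIK3CB window, to 84.0%, in another GAB2 window. PIK3R1 has 3 further starts in the table and GAB2 has 1, and none of those windows holds the word.

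Among the adaptors and exchange factors next to the receptor, 1 of 10 measured members rose and 0 fell. Of all named genes, 14.1% rose and 14.3% fell. GAB2, a docking adaptor related to GAB1 that brings PI3K and the phosphatase PTPN11 to receptors, had intensities of 883, 879 and 901 in FOXC2 cells, against 707, 704 and 638 in pBabe cells. The 3 FOXC2 arrays lay close together and above all 3 pBabe arrays. The log2 fold change was 0.38 ± 0.0855 (SE), or 1.30-fold with a 95% confidence interval of 1.13 to 1.50 (adjusted p 0.0192). The call was lost without FOXC2 replicate 1 (adjusted p 0.0512), FOXC2 replicate 2 (0.0561), FOXC2 replicate 3 (0.0667) or pBabe replicate 3 (0.0524).

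GAB1, the docking adaptor best known as a direct partner of MET, was near the bottom of the scale, at 105, 164 and 117 in FOXC2 cells and 160, 99.5 and 87.2 in pBabe cells, and its groups overlapped. Its interval of 0.735-fold to 1.75-fold leaves changes of the size seen for GAB2 possible. GRB2, the adaptor that carries SOS, had 5774, 5489 and 5756 in FOXC2 cells and 5873, 6613 and 5520 in pBabe cells. SOS1, an exchange factor for RAS, had 1999, 1984 and 1884 in FOXC2 cells and 2050, 2068 and 1951 in pBabe cells. For GRB2 and SOS1 the groups overlapped, and their log2 intervals were -0.31 to 0.16 and -0.24 to 0.15. SHC1, another adaptor for GRB2, was lower on all 3 FOXC2 arrays (11121, 11234 and 11252) than on the pBabe arrays (13285, 11322 and 12933), but did not pass (log2 fold change -0.16, adjusted p 0.262). A second SHC1 feature gave -0.21 (adjusted p 0.259), with groups that overlapped.

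The remaining members of this role did not pass and overlapped between groups. Their log2 fold changes were -0.03 for SOS2, -0.15 for the phosphatase PTPN11, which promotes RAS signalling, and -0.08 for the adaptor CRKL. The exchange factor RAPGEF1, which activates RAP1 downstream of CRK adaptors, was at 0.24, and the small GTPase RAP1A at -0.22. RAP1A was dim, with 69.5 to 84.4 on the FOXC2 arrays and 81.6 to 96.9 on the pBabe arrays, where the lowest value in the table is 50.002. The lowest p of those that did not pass was that of RAP1A (adjusted p 0.200).

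In the RAS, RAF, MEK and ERK relay, 1 of 5 measured members rose and 1 fell. That is 20.0% each, against 14.1% and 14.3% of named genes. MAPK3, which encodes the kinase ERK1 at the end of the relay, had intensities of 8412, 9418 and 8629 in FOXC2 cells, against 7095, 7266 and 7104 in pBabe cells. All FOXC2 arrays were above all pBabe arrays, and the log2 fold change was 0.30 ± 0.0859 (SE), or 1.23-fold (adjusted p 0.0429). A second, dimmer MAPK3 feature, named for another transcript of the gene, had 2649, 2975 and 2677 in FOXC2 cells and 2553, 2572 and 2743 in pBabe cells. There the groups overlapped and the log2 fold change was 0.08 (95% confidence interval -0.14 to 0.29, adjusted p 0.570), and with the mean of both features MAPK3 did not pass (0.19, adjusted p 0.153). The MAPK3 call was also lost with any 1 of the 6 arrays left out (adjusted p 0.0668 to 0.129).

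ARAF, a RAF kinase that phosphorylates MEK, had 10122, 10343 and 9929 in FOXC2 cells, against 12437, 11728 and 12576 in pBabe cells. The groups were apart and each was tight, and ARAF fell by 17.2% (log2 fold change -0.27 ± 0.0813 (SE), adjusted p 0.0486). This call stood at the edge of the threshold. It was lost with any 1 array left out (adjusted p 0.0728 to 0.139), after quantile normalization (0.0520) or median centring (0.0580), and with array weights (0.0501).

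HRAS, the RAS member measured here, had 10607, 12386 and 11310 in FOXC2 cells and 10979, 11075 and 9387 in pBabe cells, with overlapping groups and a log2 fold change of 0.13 (interval -0.13 to 0.39). The MEK kinases MAP2K1 and MAP2K2 were at -0.05 (interval -0.30 to 0.19) and 0.07 (interval -0.16 to 0.29). HRAS had the lowest p of the members in this role that did not pass (adjusted p 0.426).

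Of the 8 measured members in the PI3K role, which include the phosphatase INPPL1, 3 fell and 1 rose. That is 37.5% lower, against 14.3% of named genes, and 12.5% higher, against 14.1%. The difference from other genes was not tested. Of these 4 calls, those of PIK3CB and PIK3C2A held with each array left out. The 3 that fell encode lipid kinases, and the 1 that rose, PIK3R1, encodes a regulatory subunit. Regulatory subunits did not share a direction. PIK3R3 did not pass (log2 fold change -0.44). Outside the 37 members, PIK3R5 fell (-2.38, with FOXC2 values near the lowest in the table) and PIK3R4 did not pass (0.08). PIK3CB, the beta catalytic subunit of class I PI3K, had intensities of 1179, 1193 and 1168 in FOXC2 cells, against 1546, 1701 and 1732 in pBabe cells. The FOXC2 arrays differed little among themselves and lay well below the pBabe arrays. PIK3CB fell by 28.8% (log2 fold change -0.49 ± 0.0862 (SE), adjusted p 0.00782), and stayed between -0.54 and -0.46 with each array left out.

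PIK3C2A, a class II PI3K that acts on membranes in endocytosis, had 686, 623 and 607 in FOXC2 cells, against 1055, 883 and 918 in pBabe cells. The groups did not overlap. PIK3C2A fell by 32.8% (log2 fold change -0.57 ± 0.106 (SE), adjusted p 0.00935), with a range of -0.63 to -0.50 when single arrays were left out. PIK3CD, the delta catalytic subunit of class I PI3K, which is best known from leukocytes, had 801, 926 and 718 in FOXC2 cells, against 1198, 1062 and 1074 in pBabe cells. Its FOXC2 arrays spread more than those of PIK3CB but stayed below every pBabe array, and it fell by 26.9% (log2 fold change -0.45 ± 0.120 (SE), adjusted p 0.0333). The PIK3CD call held without FOXC2 replicate 2 (adjusted p 0.0271) and was lost without FOXC2 replicate 1 (0.0838), FOXC2 replicate 3 (0.0983), pBabe replicate 1 (0.0924), pBabe replicate 2 (0.0648) or pBabe replicate 3 (0.0676). Of the leukocyte markers given above, CD3D fell in the same cells, while CD68 was higher on every FOXC2 array and did not pass. Any link of these markers to the PIK3CD result was not tested.

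The other measured catalytic members did not pass. PIK3C3, the class III kinase of autophagy and endosomes, had 432, 392 and 366 in FOXC2 cells and 415, 523 and 526 in pBabe cells, with overlap and a log2 fold change of -0.29 (interval -0.60 to 0.01, adjusted p 0.134). PIK3C2B, another class II kinase, had 1396, 1457 and 1290 in FOXC2 cells and 1662, 1306 and 1846 in pBabe cells, at -0.20 (interval -0.54 to 0.13).

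PIK3R1, the main regulatory subunit that stabilises and restrains the class I catalytic subunits, had 639, 905 and 868 in FOXC2 cells, against 388, 488 and 621 in pBabe cells. Both groups were dim, and the lowest FOXC2 array was only just above the highest pBabe array. PIK3R1 rose 1.62-fold, with a wide interval of 1.15 to 2.29 (log2 fold change 0.70 ± 0.208 (SE), adjusted p 0.0489). The call was lost without FOXC2 replicate 2 (adjusted p 0.132), FOXC2 replicate 3 (0.134), pBabe replicate 1 (0.118) or pBabe replicate 2 (0.109). PIK3R3, a smaller regulatory subunit, was near the bottom of the scale, with 70.1, 74.3 and 86.3 in FOXC2 cells and a scattered 173, 109 and 59.5 in pBabe cells. The log2 fold change of PIK3R3 was -0.44 (interval -1.29 to 0.41), and it passed only without pBabe replicate 3 (value -0.84, adjusted p 0.0478). INPPL1, the phosphatase SHIP2 that removes a phosphate from the PI3K product, had 13541, 14966 and 13031 in FOXC2 cells and 13331, 13891 and 10850 in pBabe cells, and did not pass (0.13, interval -0.16 to 0.42).

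In the AKT and mTOR role, 2 of 8 measured members rose and 1 fell. That is 25.0% higher, against 14.1% of named genes, and 12.5% lower, against 14.3%. The difference from other genes was not tested. AKT2, an AKT kinase known for insulin signalling and amplified in some carcinomas, had intensities of 2886, 2836 and 2759 in FOXC2 cells, against 1724, 1551 and 1077 in pBabe cells. The FOXC2 arrays were tight and all were above the pBabe arrays, among which replicate 3 was the lowest. AKT2 rose 1.99-fold, with an interval of 1.49 to 2.65 (log2 fold change 0.99 ± 0.176 (SE), adjusted p 0.00808). Without pBabe replicate 3 the log2 fold change was 0.79 (adjusted p 0.00604), the smallest value among the arrays left out.

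AKT1, the AKT kinase most often linked to cell survival, had 21345, 19616 and 20276 in FOXC2 cells, against 14732, 15647 and 15982 in pBabe cells. The groups were apart, and AKT1 rose 1.32-fold, with an interval of 1.15 to 1.52 (log2 fold change 0.40 ± 0.0856 (SE), adjusted p 0.0159). The AKT1 call was lost without FOXC2 replicate 1 (adjusted p 0.0509) or FOXC2 replicate 3 (0.0528). RPTOR, the scaffold that defines mTOR complex 1, had 2243, 2759 and 2594 in FOXC2 cells, against 3625, 3098 and 3844 in pBabe cells. Its groups did not overlap, and it fell by 28.1% (log2 fold change -0.48 ± 0.125 (SE), adjusted p 0.0324). That call was lost without FOXC2 replicate 1 (adjusted p 0.0861), FOXC2 replicate 3 (0.0778), pBabe replicate 1 (0.0866) or pBabe replicate 3 (0.0894).

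MTOR, the kinase shared by both complexes, had 3219, 3314 and 3320 in FOXC2 cells and 3078, 3345 and 3161 in pBabe cells. The groups overlapped and the interval of its log2 fold change was narrow, from -0.15 to 0.24. PDPK1, which phosphorylates AKT, was at 0.16 (interval -0.09 to 0.41), and RICTOR, the scaffold of mTOR complex 2, at -0.24 (interval -0.55 to 0.07). RICTOR was dim, at 147 to 197 on the FOXC2 arrays and 182 to 209 on the pBabe arrays. TSC1, a subunit of the inhibitor of mTOR complex 1, had 319, 320 and 301 in FOXC2 cells and 352, 408 and 390 in pBabe cells. TSC1 was lower on all FOXC2 arrays but missed the threshold (-0.29 ± 0.0934 (SE), adjusted p 0.0629), which it passed after quantile normalization (0.0406) and with array weights (0.0479). Its partner TSC2 was at -0.11 (interval -0.38 to 0.15), with overlap.

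**Figure D3:**
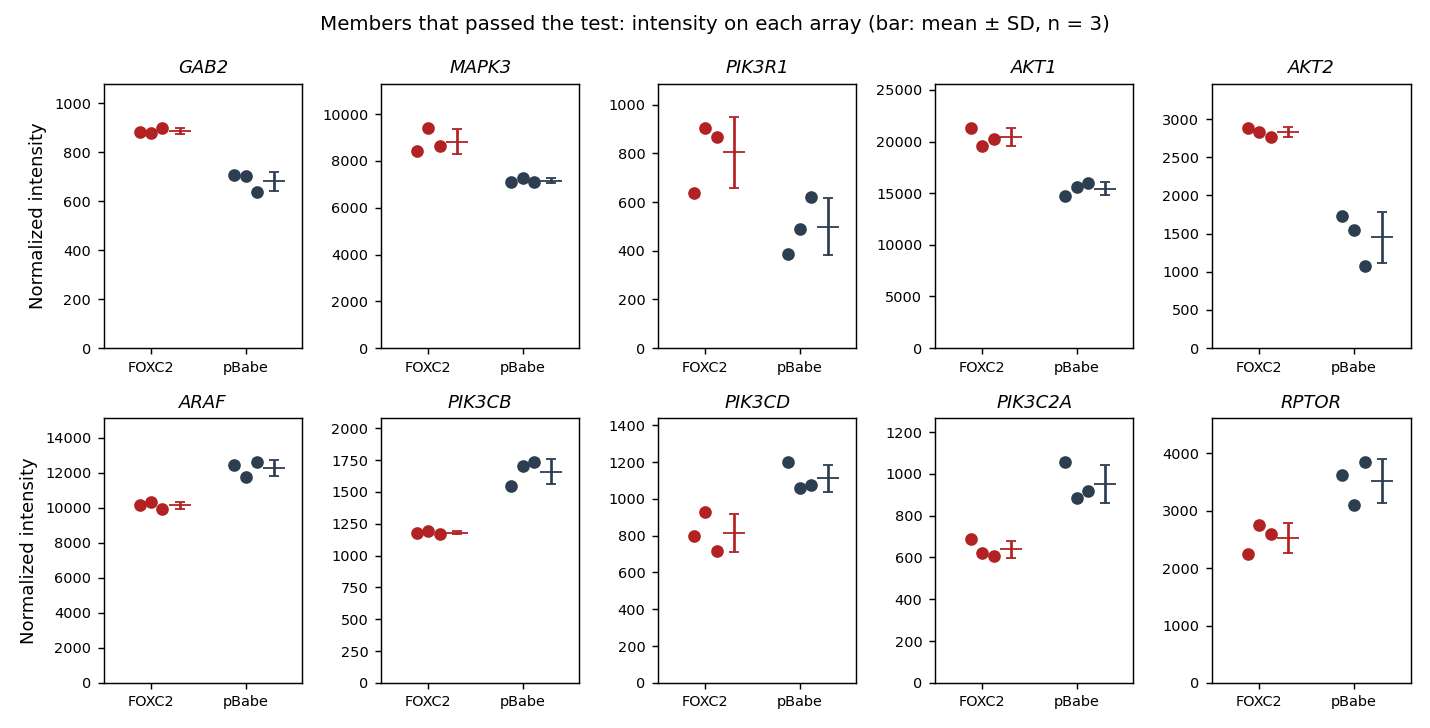
Normalized intensity (y axis, linear, from 0) on each array for the 10 members that passed, with FOXC2 cells in red on the left and pBabe cells in dark blue on the right of each panel. Bars give the mean ± SD of 3 arrays. The top row holds the 5 genes that rose, with AKT2 at 2759 to 2886 in FOXC2 cells and 1077 to 1724 in pBabe cells, and the bottom row the 5 that fell, and in no panel do the groups overlap.

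Of the 6 other relays and regulators measured, 0 passed by limma, against 28.4% of named genes, with 2 at an unadjusted p under 0.05. CBL, the ubiquitin ligase that marks MET for degradation, had 2068, 1940 and 1959 in FOXC2 cells, against 2313, 2759 and 2340 in pBabe cells. CBL was lower on every FOXC2 array (log2 fold change -0.31 ± 0.102 (SE)) but missed the threshold at an adjusted p of 0.0658. It passed with dim features left out (0.0173), with a trended robust prior (0.0209) and with array weights (0.0489). PLCG1, the phospholipase that raises calcium and diacylglycerol, had 2256, 1988 and 2091 in FOXC2 cells, against 2305, 2730 and 2483 in pBabe cells, at -0.25 (adjusted p 0.123, or 0.0495 with dim features left out).

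PAK4, a kinase of cell motility, had 18953, 19322 and 18784 in FOXC2 cells, against 16849, 16427 and 17480 in pBabe cells. Its groups were apart, but the log2 fold change of 0.17 did not pass (adjusted p 0.163). STAT3, a transcription factor that MET can activate, had 3188, 3213 and 3261 in FOXC2 cells and a wider 3315, 2402 and 2839 in pBabe cells. Its 2 features both gave 0.19 and neither passed. The tyrosine kinase SRC was at -0.02 (interval -0.22 to 0.18) and RANBP9, a scaffold that binds MET, at -0.05 (interval -0.32 to 0.23), both with overlapping groups.

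Related or partner genes can shift against each other, which was asked with their log2 ratio on each array. Of 15 pairs listed, 8 had both genes measured. With 3 arrays against 3, the exact two-sided permutation test cannot go below a p of 0.10, so no pair could pass, and the adjusted p over the 8 pairs was at least 0.267. The ratio of AKT2 to AKT1 changed by 0.59 on the log2 scale, as the ratio was -2.85 ± 0.0533 in FOXC2 cells and -3.44 ± 0.408 in pBabe cells (SD, n = 3 each). All 3 FOXC2 arrays had a higher ratio than all 3 pBabe arrays (exact permutation p 0.10). The groups were also apart for PIK3C2B to PIK3C2A (change of 0.37) and for TSC2 to TSC1 (0.17), each with an exact permutation p of 0.10. Groups were apart for 48.4% of single named genes. The share over ratios of other genes was not computed, so how common ratios with groups apart are here is not known. The other 5 ratios overlapped between groups, with changes of 0.02 for SOS2 to SOS1, 0.12 for MAP2K2 to MAP2K1, 0.20 for GAB2 to GAB1, 0.23 for RICTOR to RPTOR and -1.14 for PIK3R3 to PIK3R1, whose pBabe arrays were scattered (SD 1.11).

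**Figure D4:**
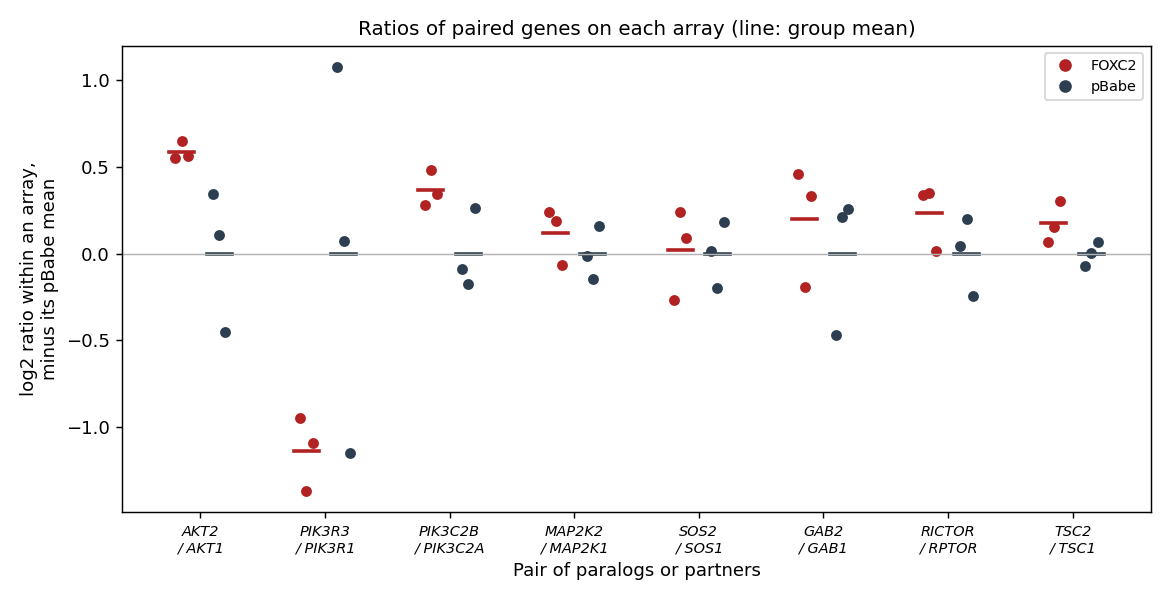
Log2 ratio of paired genes on each array (y axis, each pair shifted so that its pBabe mean is 0), for 8 pairs, with FOXC2 arrays in red on the left and pBabe arrays in dark blue on the right of each pair. Lines are group means of 3 arrays. The groups are apart for AKT2 to AKT1, PIK3C2B to PIK3C2A and TSC2 to TSC1. They are apart for 48.4% of single named genes, and the share over ratios of other genes was not computed.

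The other genes of the MET pathway were taken from a list of 78 that holds no member, of which 64 were measured. Of these 7 rose and 11 fell, or 28.1% in all, again near the 28.4% of named genes, with a median log2 fold change of -0.03. A change of at least 2-fold was seen for 5 of 64, or 7.81%, near the 7.30% of named genes.

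The 10 with the lowest p are given here. GRB7, an adaptor that binds receptor tyrosine kinases, had 3815, 3873 and 3285 in FOXC2 cells, against 1817, 1658 and 1611 in pBabe cells, a rise of 1.11 ± 0.104 (SE) on the log2 scale (adjusted p 6.64e-04). PIK3R5, a regulatory subunit of the gamma PI3K, had 59.7, 82.7 and 70.5 in FOXC2 cells, against 456, 353 and 305 in pBabe cells (-2.38 ± 0.183 (SE), adjusted p 2.91e-04). The FOXC2 values lie near the lowest in the table, so the size of that fall is uncertain. STAT5A, a transcription factor activated by tyrosine kinases, had 1081, 1058 and 798 in FOXC2 cells, against 2144, 2184 and 2574 in pBabe cells (-1.24 ± 0.147 (SE), adjusted p 0.00166). In all 3 genes the groups were well apart.

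The tyrosine phosphatase PTPN1, which acts on receptor kinases, had a log2 fold change of -0.68 (adjusted p 0.00297), and SPRED2, an inhibitor of the RAS to RAF step, of -0.48 (0.0140, or 0.0528 without FOXC2 replicate 3). SGK1, a kinase related to AKT and driven by mTOR complex 2, was at -0.69 (0.00497), and DDIT4, a stress-induced inhibitor of mTOR complex 1, at -0.81 (0.0131). The RAS relative MRAS was at -1.39 (0.00949), and IRS2, the insulin receptor substrate, at -0.51 (0.0179). Both were dim. MRAS had 84.0, 105 and 177 in FOXC2 cells, against 294, 297 and 321 in pBabe cells. Its FOXC2 values were low and scattered, so the size of the MRAS fall is uncertain. The IRS2 call was lost without FOXC2 replicate 2 (adjusted p 0.0514), pBabe replicate 2 (0.0549) or pBabe replicate 3 (0.0549). MAPKAP1, the SIN1 subunit of mTOR complex 2, rose by 0.44 (0.0121).

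A further 8 genes passed and are named for completeness. Around mTOR complex 1, the kinase RPS6KB1 (-0.46), a substrate of the complex, and the activating GTPase RHEB (-0.33) fell. The inhibitory subunit AKT1S1 (0.36) and the translation repressor EIF4EBP1 (0.34) rose. The AKT substrate GSK3A (0.53), the RAL exchange factor RALGDS (0.37) and the RAS-GAP RASAL1 (1.11) rose, and the GTPase RRAS (-0.47) fell. Each of these 8 calls was lost with at least 4 of the 6 arrays left out singly, the adjusted p reaching 0.0698 for RASAL1, 0.0808 for RPS6KB1, 0.0837 for AKT1S1, 0.0849 for RHEB, 0.0890 for RRAS, 0.0999 for RALGDS, 0.108 for GSK3A and 0.118 for EIF4EBP1. RASAL1 was dim, at 139 to 210 on the FOXC2 arrays and 62.5 to 117 on the pBabe arrays. Inhibitors of mTOR complex 1 that passed did not share a direction, as AKT1S1 rose and DDIT4 (-0.81), given earlier, fell. The scaffold RPTOR (-0.48) fell, as did RHEB. The inhibitory subunit DEPTOR (0.36) and the inhibitor subunits TSC1 (-0.29) and TSC2 (-0.11) did not pass. MTOR (0.04) and the subunit MLST8 (0.06) did not pass either.

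**Figure D5:**
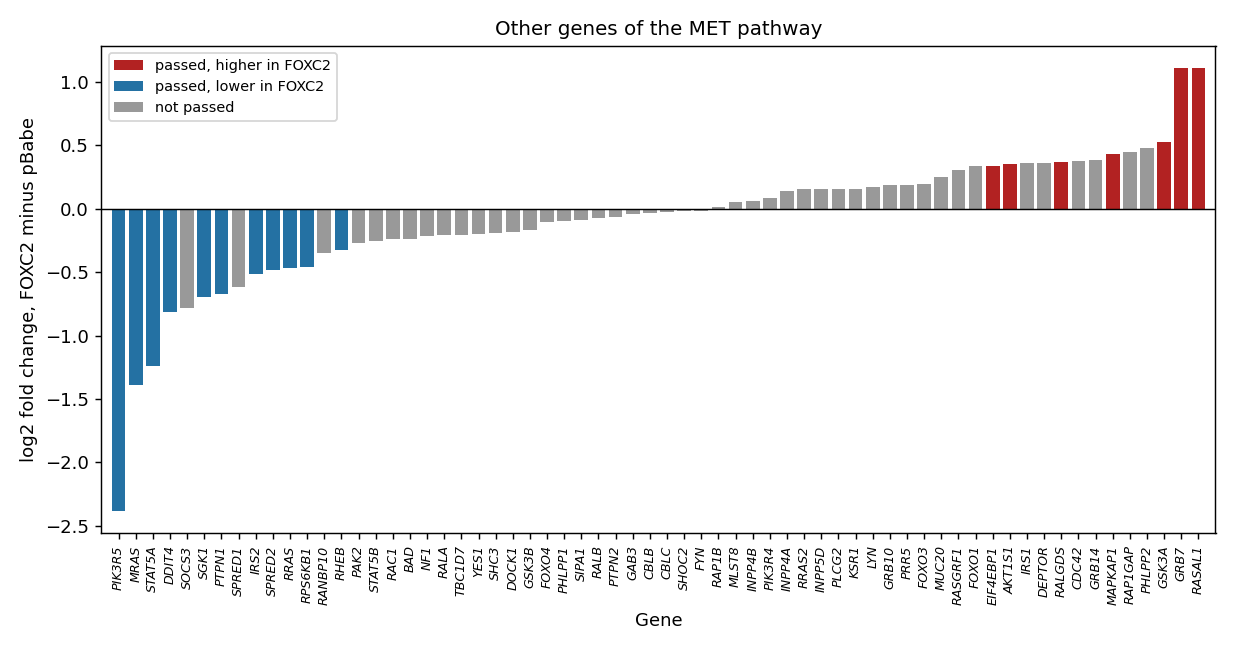
Log2 fold change (FOXC2 minus pBabe, y axis) of the 64 measured MET pathway genes that are not among the 37, ordered by value (x axis). Red bars passed higher in FOXC2 (7 genes), blue bars passed lower (11 genes) and grey bars did not pass. PIK3R5, at -2.38, and RASAL1 and GRB7, both at 1.11, stand at the ends.

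The position of the 10 members that passed was described through their neighbours, taking the 5 nearest measured genes on each side along the chromosome. Of these 100 neighbours 28 passed, or 28.0%, against 28.4% of all named genes, 15 in the direction of the member beside them and 13 in the other. Around AKT2, 1 of 10 neighbours passed, and it fell. Around AKT1, 3 of 10 passed and all 3 rose. Around PIK3CB, 3 of 10 fell and 1 rose, and MRAS is among these neighbours.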

How the data were processed

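Total RNA of 3 FOXC2 and 3 pBabe cultures of SW480 was labelled with Cy3 and hybridised to NimbleGen arrays, per the labels' protocols. What the authors deposited are normalized intensities on a linear scale, made by the authors with RMA, per the submitters' processing notes. Neither the version and settings of RMA nor a genome build is stated there. The table holds 33497 features with values from 50.002 to 57044, so a feature under that lowest value on an array is not analysed here. Array medians were 895 to 913. Across features (no independent replicates), arrays correlated at 0.987 to 0.990 within groups and at 0.958 to 0.964 between groups (Pearson's r). Without detection calls, probe sequences or scan batches, background, cross-hybridisation between related genes and batch effects could not be assessed. The number of arrays limits the precision.

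The platform's probe annotation gave 1 symbol to 13730 features, covering 12562 genes, several to 0 and none to 19767. No offset or filter was applied before the log2 transformation, and values were compared with limma 3.58.1 under R 4.3.3 (functions lmFit and eBayes), with FOXC2 minus pBabe as the contrast and Benjamini-Hochberg adjustment over all features. Intervals cover 95%. A gene was called dim where neither group's mean log2 intensity reached the median of all values, which corresponds to an intensity of 903. Ratios of paired genes were compared with exact permutation tests. The steps were tested on simulated data. The members, the lists and the tests were chosen with earlier results of these data known. All members are accounted for, every passing member is named, and of the other pathway genes the 10 with the lowest p are named by rule, the other 8 that passed being added afterwards. Results were recomputed without each single array, with the replicate number as a block, after quantile normalization or median centring, on bright features alone, with array weights or a trended robust prior, with 16 added to the intensities, and with the mean of a gene's features.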

Additional observations from a re-analysis of the deposited data

How the results depend on the processing

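The counts of calls depended on the number of arrays and on the fit. With single arrays left out, 1 to 3 members were higher and 2 to 4 lower in FOXC2 cells, against 5 and 5 with all arrays. Of the other pathway genes 2 to 5 were higher and 7 to 10 lower, against 7 and 11, and 5752 to 6768 of all features passed, against 8819. With the replicate block, 2 members were higher and 2 lower, 4 other pathway genes were higher and 10 lower, and 5960 features passed. Members that passed under the block were AKT2, PIK3R1, PIK3CB and PIK3C2A. Samples with the same number did not deviate together (correlations of -0.10, -0.12 and -0.06 across features, against 0.02 to 0.09 for other pairs), so the numbers were not taken to pair the cultures. With dim features left out, 3 of the 28 members left were higher and 7 lower, and 7586 of 17687 features passed (42.9%). Some members changed sign, none of them passing. Their log2 fold changes with all arrays were near 0, apart from that of GAB1 (0.18), which was dim. SOS2 was at 0.014 with array weights and ranged from -0.15 to 0.098 with single arrays left out. With single arrays left out, GAB1 ranged from -0.0065 to 0.44, MAP2K1 from -0.13 to 0.013, SRC from -0.047 to 0.014 and RANBP9 from -0.14 to 0.039. Over the settings that used all arrays there were 287 member results, of which 270 had an unchanged sign and call, 10 lost the call, 6 gained one and 1 turned its sign. With an array left out there were 222, of which 183 were unchanged in both, 31 lost the call, 1 gained one and 7 turned their sign. The median log2 fold change of all features was 0.03 as reported and 0.04 after median centring. Apart from the arrays left out, the cause of these differences was not tested.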
